A study of Homo sapiens with 12 samples.

Results

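The pancreatic cancer driver genes set here are NRAS, HRAS, BRAF, CDKN2A, SMAD4 and MYC. Their features were found by gene symbol in the annotation table of the array, which gave 43 features among the 43376 of the deposited table. HRAS had 10 features, SMAD4 10, MYC 12 and CDKN2A 11. NRAS and BRAF had no feature under their symbol in that table and were not analysed here. Of the 43 features 31 (72.1%) had a value on all 12 arrays and 12 had one on none, against 17134 (39.5%) with a value in the whole table. The measured genes were thus HRAS with 10 of 10 features, SMAD4 with 10 of 10 and MYC with 11 of 12, while all 11 features of CDKN2A were blank.

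MiaPaCa-2, a line grown from a human pancreatic carcinoma, was exposed to a leaf extract of *Achyranthes aspera* (LE, the acetone fraction taken up in methanol) at 34 μg/mL, and control cells received 2% methanol alone. Each array set RNA of LE-treated cells against RNA of control cells of the same time point, on 6 arrays after 24 h of exposure, 4 after 48 h and 2 after 72 h. The treated side was labelled with Cy-5 on 3, 2 and 1 of these and with Cy-3 on the rest. The methods describe cultures in duplicate, with the biological replicates labelled by dye swap, so culture and dye orientation may coincide. Which arrays share a culture is not known. The spread between arrays may thus be technical in part or whole, and p-values measure that spread alone. All RNA came from 1 cell line, and since whole cultures were lysed, fewer cells of a kind and less RNA per cell cannot be told apart. Of 8 markers of pancreatic cancer cells 6 had a value, among them KRT8, KRT18, KRT19 and VIM, and no feature of the acinar or endocrine markers had one. Of the markers of other cells, COL1A1 of fibroblasts and CD14 of myeloid cells had a value.

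HRAS and NRAS are membrane-bound GTPases that pass growth factor signals to the RAF kinases, BRAF among them, and on to the MAP kinases. CDKN2A encodes the INK4a inhibitor of the cyclin D kinases and, from another first exon, the ARF protein, a tumour suppressor. SMAD4 joins receptor-activated SMAD proteins and carries the TGF-beta signal to promoters, and MYC, a transcription factor that pairs with MAX, drives ribosome production, metabolism and division. In pancreatic carcinoma CDKN2A and SMAD4 are often lost, and MiaPaCa-2 is known to carry a homozygous deletion of CDKN2A.

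The deposited values are log2 ratios after the normalization of the authors. Each feature has a value on all 12 arrays or on none, and the methods exclude features that failed a spot criterion. A blank is thus read as a spot that missed a criterion, and gives no level. CDKN2A had features of 1 accession, each blank on 12 of 12 arrays. Blanks ran together by accession in the whole table too: of 239 accessions with at least 8 features, 134 had a value on all of them, 65 on none and 40 on some. The single blank feature of MYC, number 4922, shares its accession with 10 measured ones.

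The direction of the ratio is not stated for each array. The title of every array names treated against untreated cells, and the ratios are given below as deposited, read as LE over control. If the ratios were instead Cy-5 over Cy-3 on every array, those of arrays with treated RNA in Cy-3 have to be turned. This second reading is given beside each gene. The titles do not name the channel on top, and a spot criterion of the authors asks for an opposite change at dye swap. Of all features with a value, 54.1% kept 1 side of 0 on both 72 h arrays as deposited, and 45.9% when turned. Under neither reading do all features with a value thus meet that criterion. Which reading holds is not settled here. Over all features, pairs of arrays with treated RNA in the same dye correlated at r between -0.018 and 0.50 (median 0.23, 30 pairs), and pairs with it in opposite dyes at r between -0.34 and 0.26 (median -0.034, 36 pairs, 23 of them below 0). A term for the dye orientation had an unadjusted p under 0.05 at 27.2% of all features, and at 8 of the 31 members (25.8%). The medians of the arrays lay between -0.048 and 0.098 and their SD between 0.48 and 0.99.

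No feature of HRAS, SMAD4 or MYC passed FDR ≤ 0.01 at any time point. All 17134 features with a value were fitted in limma, each with 3 coefficients, 1 per exposure time. It called 0 of the 31 members at 24 h, 0 at 48 h and 0 at 72 h, where it called 0% of all features as well. The paper reports many genes past the same FDR at each time point. The fit here did not reproduce those calls, and the reason was not tested. At an unadjusted p under 0.05 there were 3 of 31 at 24 h (9.68%, against 5.78% of all features), 5 at 48 h (16.1%, against 9.29%) and 5 at 72 h (16.1%, against 8.99%). The second reading gave 2 (6.45%, against 9.26%), 4 (12.9%, against 12.5%) and 3 (9.68%, against 4.91%) in the same order. Averaged over the 3 exposure times 7 members reached it (22.6%, against 15.9%), 3 above 0 and 4 below, and 0 were called at FDR ≤ 0.01 (0.0525% of all features). A moderated F test of the 3 coefficients gave 0 calls among the members (0% of all features), with 5 at an unadjusted p under 0.05 (9.71% of all features). Members lay on both sides of 0, with 14 above and 17 below at each time point.

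HRAS, averaged over its 10 features, lay slightly below 0 and passed the test at no time point. At 24 h the gene mean ran from -0.26 to 0.019 with a median of -0.14 on 6 arrays, and 1 of the 6 lay above 0. At 48 h the arrays had 0.12, -0.031, -0.31 and -0.076, and at 72 h -0.25 and -0.13. The arrays of 24 and 48 h thus overlapped, and those of 72 h lay inside the range of the 48 h arrays. The 24 h mean was -0.12 ± 0.092 (SD, n = 6), the 48 h mean -0.074 ± 0.18 (SD, n = 4) and the 72 h mean -0.19 ± 0.082 (SD, n = 2). As a ratio of LE over control these are 0.918, 0.950 and 0.878. In limma over 8828 gene means, the 24 h term was -0.12 (95% CI -0.37 to 0.13, adjusted p = 0.949), and the mean over the time points was -0.13 (standard error 0.091, 95% CI -0.32 to 0.068, adjusted p = 0.542). Turned by the dye labels, HRAS was at -0.030, -0.097 and 0.058 over the successive time points, so that the 72 h value changed side.

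**Figure D1:**
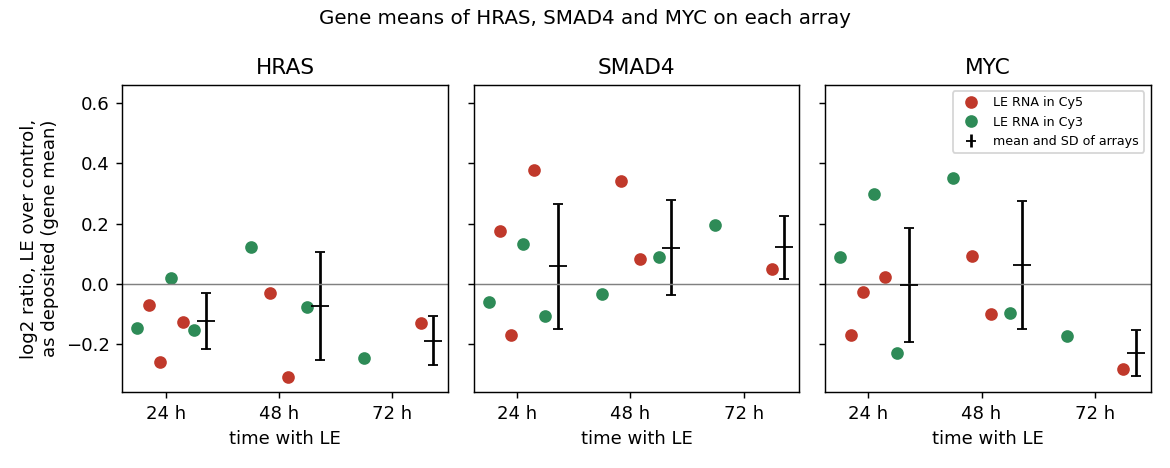
Gene means of HRAS, SMAD4 and MYC on each array, as log2 ratio of LE over control as deposited (vertical axis) against time with LE (horizontal axis). Each point is 1 array, in red where treated RNA was labelled with Cy-5 and in green where with Cy-3, and bars give the mean and SD of the arrays (n = 6, 4 and 2). Points of each gene lie on both sides of 0 at 24 and 48 h.

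SMAD4 lay slightly above 0 at each time point. Its gene mean over 10 features ran from -0.17 to 0.38 with a median of 0.036 on the 24 h arrays, where 3 of 6 lay above 0. At 48 h the arrays had -0.033, 0.34, 0.083 and 0.088, and at 72 h 0.19 and 0.047. Only 48 h replicate 1 was below 0 among these 6 later arrays, and the groups overlapped. The 24 h mean was 0.058 ± 0.21 (SD, n = 6), that of 48 h 0.12 ± 0.16 (SD, n = 4) and that of 72 h 0.12 ± 0.10 (SD, n = 2), or 1.04, 1.09 and 1.09 as a ratio of LE over control. The 72 h term was 0.12 (95% CI -0.34 to 0.59, adjusted p = 0.97), and the mean over the time points 0.10 (standard error 0.098, 95% CI -0.11 to 0.31, adjusted p = 0.681). The second reading put SMAD4 at 0.070, 0.092 and -0.074 over the successive time points.

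MYC had its lowest gene mean at 72 h. Over its 11 features the 24 h arrays ran from -0.23 to 0.30 with a median of -0.0021, with 3 of 6 above 0. At 48 h the arrays had 0.35, 0.092, -0.099 and -0.097, of which the first stood above the others, and at 72 h both were below 0, at -0.17 and -0.28. The 24 h mean was -0.0029 ± 0.19 (SD, n = 6), that of 48 h 0.062 ± 0.21 (SD, n = 4) and that of 72 h -0.23 ± 0.077 (SD, n = 2), or 0.998, 1.04 and 0.853 as a ratio of LE over control. The 72 h term was -0.23 (95% CI -0.70 to 0.24, adjusted p = 0.858), and the mean over the time points -0.056 (standard error 0.098, 95% CI -0.27 to 0.15, adjusted p = 0.839). Of all 8828 genes, 54.4% kept 1 side of 0 on both 72 h arrays, as HRAS, SMAD4 and MYC each did. Turning by the dye labels changes the sign of 1 of these 2 arrays. Each of the 3 genes thus had 1 of the 2 above 0, and 45.6% of all genes kept 1 side. The second reading put MYC at -0.055, -0.065 and -0.054 over the successive time points, below 0 each time.

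Between time points the gene means did not differ beyond their spread. In MYC the difference of 72 h minus 48 h was -0.29 (95% CI -0.86 to 0.28, adjusted p = 0.999) and that of 72 h minus 24 h was -0.23 (95% CI -0.77 to 0.31, adjusted p = 0.9997). In HRAS 72 h minus 48 h was -0.11 (95% CI -0.65 to 0.42, adjusted p = 0.999) and in SMAD4 48 h minus 24 h was 0.062 (95% CI -0.36 to 0.49, adjusted p = 0.998). Under the second reading these differences were 0.011 and 0.0012 in MYC, 0.16 in HRAS and 0.022 in SMAD4, so that the sign changed in MYC and HRAS. As deposited, from low to high, MYC was lowest at 72 h, then 24 h and 48 h, HRAS at 72 h, then 24 h and 48 h, and SMAD4 at 24 h, then 48 h and 72 h, and no neighbours in these orders differed by limma. The second reading gave other orders, with HRAS lowest at 48 h, then 24 h and 72 h, SMAD4 at 72 h, then 24 h and 48 h, and MYC at 48 h, then 24 h and 72 h. Single features gave 0 calls for 48 h minus 24 h, 72 h minus 24 h and 72 h minus 48 h (0% of all features in each), with 3, 1 and 1 of 31 at an unadjusted p under 0.05 (4.82%, 3.9% and 3.9% of all features). With the 2 arrays of 72 h, the intervals leave room for changes in either direction.

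Gene means were also taken within each dye orientation. At 24 h, arrays with treated RNA in Cy-5 and in Cy-3 gave -0.15 and -0.093 for HRAS, 0.13 and -0.012 for SMAD4 and -0.058 and 0.053 for MYC, each the mean of 3 arrays. At 48 h they gave -0.17 and 0.024 for HRAS, 0.21 and 0.027 for SMAD4 and -0.0032 and 0.13 for MYC, each the mean of 2. At 72 h, with 1 array for each orientation, HRAS and MYC were below 0 and SMAD4 above 0 on both. The dye coefficient, Cy-5 minus Cy-3, was -0.075 for HRAS (standard error 0.16, adjusted p = 0.796), 0.11 for SMAD4 (adjusted p = 0.723) and -0.12 for MYC (adjusted p = 0.699).

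A gene mean near 0 stood for features far apart. Features that share an accession should measure 1 transcript, and here their ratios were not alike. Over the 12 arrays the mean pairwise r was -0.063 among the 10 HRAS features (45 pairs, 27 below 0), 0.022 among the 10 of SMAD4 (45 pairs, 21 below 0) and 0.0044 among the 11 of MYC (55 pairs, 28 below 0). Over all pairs of measured features it was 0.0022, and over the 168 accessions with at least 8 measured features the median was -0.0058, with the 5th and 95th percentiles at -0.063 and 0.12. The SD between the features of a gene on an array averaged 0.63 for HRAS, 0.52 for SMAD4 and 0.62 for MYC, where the SD over all features of an array averaged 0.64. These are descriptions across features of the same arrays. Gene names rest on the feature number that the value table and the annotation share, a match that the ratios within an accession do not back and that the blanks, which ran together by accession, do. A gene mean near 0 therefore does not show that the transcript stayed unchanged, and a single feature away from 0 does not show that it moved.

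**Figure D2:**
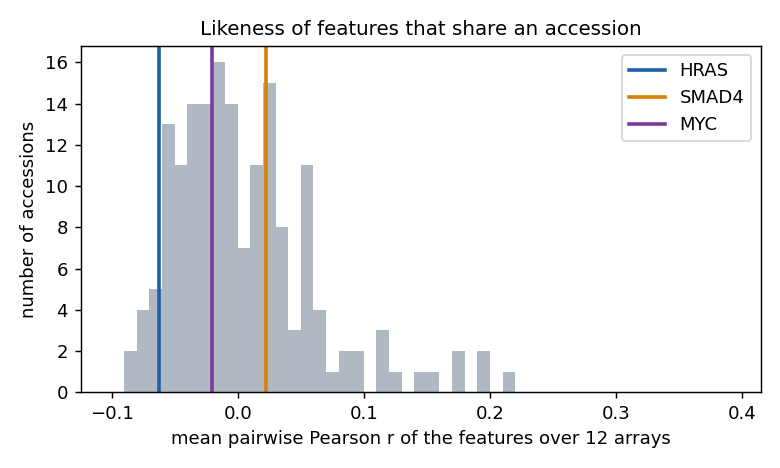
Mean pairwise Pearson r over 12 arrays (horizontal axis) among the features that share an accession, for the 168 accessions with at least 8 measured features (grey, number of accessions on the vertical axis). Coloured lines mark HRAS (-0.063), SMAD4 (0.022) and the main accession of MYC (-0.020), against a median of -0.0058 and 5th and 95th percentiles of -0.063 and 0.12.

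The 10 features of HRAS spread to both sides of 0, mostly at 72 h, where their means ran from -1.17 to 1.11 with 5 above 0. At 24 h 3 features were above 0 and at 48 h 5. Feature means are given below in the order 24, 48 and 72 h, each with the SD of its 6, 4 and 2 arrays. Feature 29877 gave 0.030 ± 0.23, then 0.0022 ± 0.21, then -1.17 ± 0.49, and had the smallest p of all members at 72 h (adjusted p = 0.206). Its arrays ran from -0.16 to 0.44 with a median of -0.024 at 24 h, with -0.11, 0.31, -0.048 and -0.14 at 48 h and -1.52 and -0.83 at 72 h. Both 72 h arrays were thus below all 10 earlier ones, and the mean over the time points was -0.38 (standard error 0.13, adjusted p = 0.144), and 0.18 when turned by the dye labels. Feature 20613 lay above 0 at 72 h and gave -0.047 ± 0.91, then 0.29 ± 0.46, then 1.11 ± 0.97, with an overall mean of -0.27 under the second reading. Feature 13635 was below 0 at each time point, with -0.38 ± 0.71, then -0.51 ± 0.73, then -0.72 ± 0.098, and a mean of -0.54 (standard error 0.20, adjusted p = 0.192), from 9 of 12 arrays below 0. The second reading put it at -0.023 (adjusted p = 0.969), with 5 of 12 arrays above 0.

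The other 7 HRAS features followed no common course. Feature 4861 gave -0.11 ± 0.41, then 0.40 ± 0.45, then -0.33 ± 1.62, with 72 h arrays as far apart as -1.48 and 0.82. Feature 9466 gave -0.15 ± 0.39, then 0.011 ± 0.76, then 0.43 ± 1.38, from 72 h arrays at -0.55 and 1.40. In both the array with treated RNA in Cy-3 was the low one, and turned by the dye labels their overall means were 0.49 and 0.54 (adjusted p = 0.0876 and 0.0736). Feature 12234 gave -0.0031 ± 0.27, then -0.54 ± 0.16, then 0.046 ± 0.80, with 4 of 4 arrays below 0 at 48 h. Feature 13055 gave -0.63 ± 0.84, then 0.30 ± 1.02, then -1.06 ± 0.18, and feature 32132 -0.17 ± 0.49, then -0.13 ± 0.66, then -0.40 ± 0.52. These were below 0 on 9 and 8 of 12 arrays. Feature 27553 gave 0.22 ± 0.26, then -0.45 ± 0.53, then 0.071 ± 0.24, and feature 44337 0.0068 ± 0.11, then -0.089 ± 0.56, then 0.14 ± 0.23.

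**Figure D3:**
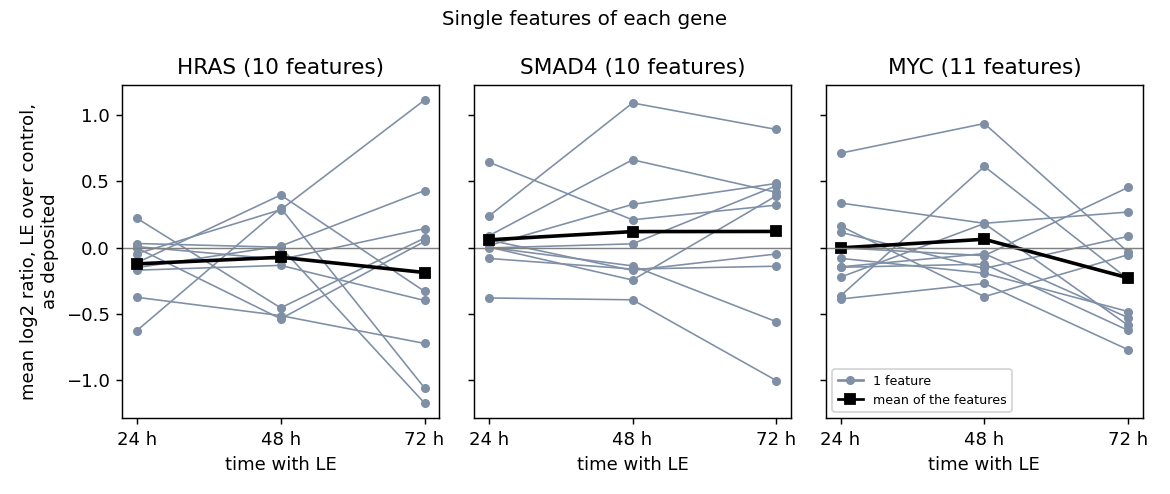
Mean log2 ratio of LE over control as deposited (vertical axis) of each measured feature of HRAS (10 features), SMAD4 (10) and MYC (11) at 24, 48 and 72 h (horizontal axis). Each grey line is 1 feature and the black squares give the mean of the features of a gene, which stays between -0.23 and 0.12 while single features run from -1.17 to 1.11.

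SMAD4 held the feature with the smallest p of all members for the mean over exposure times. Feature 34640 ran from -0.41 to 0.94 with a median of 0.20 at 24 h, with 4 of 6 above 0. It had 1.18, 1.89, 0.78 and 0.51 on the 48 h arrays and 0.97 and 0.81 on the 72 h arrays, all above 0. The means were 0.24 ± 0.51, then 1.09 ± 0.60, then 0.89 ± 0.11, and the mean over the time points was 0.74 (standard error 0.17, adjusted p = 0.0437), and 10 of 12 arrays lay above 0. It is thus past an FDR of 0.05 and short of 0.01, and the share of all features past 0.05 is not given here. Under the second reading this mean was 0.045 (adjusted p = 0.946), with 6 of 12 arrays above 0.

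Another SMAD4 feature lay below 0. Feature 2683 ran from -1.08 to 0.37 with a median of -0.27 at 24 h, with -0.23, -0.70, -0.32 and -0.31 at 48 h and -0.72 and -1.28 at 72 h, below 0 on 11 of 12 arrays, and only 24 h replicate 4 lay above. Its mean over the time points was -0.59 (standard error 0.15, adjusted p = 0.0671), and -0.15 when turned by the dye labels. Features 34640 and 2683 carry the same accession, so SMAD4 has no single direction in these ratios. Feature 17702 gave 0.64 ± 0.67, then 0.21 ± 0.33, then 0.32 ± 0.85 and was above 0 on 6 of 6 arrays at 24 h, the only member to keep 1 side there as deposited (2.81% of all features did). With turned ratios 17702 did not, and HRAS feature 4861 and SMAD4 feature 36447 were above 0 on all 6 (9.13% of all features kept 1 side). Feature 20787 gave 0.088 ± 0.42, then 0.66 ± 0.62, then 0.42 ± 0.46, from 48 h arrays at 0.25, 1.59, 0.38 and 0.43, with an overall mean of 0.39 (standard error 0.16, adjusted p = 0.257). Once turned, the overall means of 17702 and 20787 were 0.34 and 0.31.

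The other 6 features of SMAD4 had no unadjusted p under 0.05 in the overall mean. Feature 17289 gave 0.0036 ± 0.12, then -0.25 ± 0.15, then 0.39 ± 0.99, and feature 23434 0.057 ± 0.57, then -0.17 ± 0.15, then -0.049 ± 0.28. Feature 23707 gave 0.015 ± 0.31, then 0.32 ± 0.51, then 0.48 ± 0.0090, and feature 36447 -0.0033 ± 0.40, then 0.028 ± 0.66, then 0.47 ± 0.059. Both were above 0 on 2 of 2 arrays at 72 h, as were 34640 and 20787. Feature 35156 gave 0.0017 ± 0.56, then -0.14 ± 0.43, then -0.56 ± 0.48. Feature 39377 gave -0.082 ± 0.53, then -0.16 ± 0.15, then -0.14 ± 0.14, below 0 on 11 of 12 arrays with 0.93 on 24 h replicate 2.

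MYC had its clearest features on opposite sides as well. Feature 6084 ran from -0.74 to 0.23 with a median of -0.42 at 24 h, where 24 h replicate 1 alone was above 0. It had -0.25, -0.42, -0.42 and 0.014 at 48 h and -0.90 and -0.64 at 72 h. Its means were -0.39 ± 0.33, then -0.27 ± 0.21, then -0.77 ± 0.18, with an overall mean of -0.48 (standard error 0.13, adjusted p = 0.0799), and turned by the dye labels -0.052 (adjusted p = 0.901). Feature 7098 ran from -0.24 to 1.90 with a median of 0.51 at 24 h and had 2.49, 1.06, 0.030 and 0.16 at 48 h, above 0 on 9 of these 10 arrays, and 0.037 and -0.11 at 72 h. Its means were 0.71 ± 0.78, then 0.93 ± 1.14, then -0.035 ± 0.10, with an overall mean of 0.54 (standard error 0.24, adjusted p = 0.291), and turned by the dye labels it was at -0.20. Feature 39735 was above 0 on 10 of 12 arrays with 0.34 ± 0.40, then 0.18 ± 0.099, then 0.27 ± 0.18, and turned by the dye labels it was at -0.020 with 6 of 12 arrays above 0.

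Feature 36321 of MYC differed between the dye orientations. Its arrays with treated RNA in Cy-5 and in Cy-3 differed by -1.78 on the log2 scale (Cy-5 minus Cy-3, standard error 0.39, adjusted p = 0.0190), the smallest p of the dye term among the 31 members, and 0 members passed FDR ≤ 0.01 for it (0.268% of all features). The 48 h arrays with treated RNA in Cy-5, replicates 2 and 3, were at -1.92 and -0.64, and those with it in Cy-3 at 2.17 and -0.11. As deposited its means were -0.15 ± 0.92, then -0.13 ± 1.71, then -0.62 ± 1.23. Once turned, its overall mean was -0.92 (standard error 0.22, adjusted p = 0.0442), with 2 of 12 arrays above 0. A dye effect and, under the second reading, an effect of LE cannot be told apart here. Feature 20376 leaned the other way, at 0.50 after turning (adjusted p = 0.0926), and gave -0.0022 ± 0.67, then -0.061 ± 0.97, then 0.45 ± 0.42 as deposited.

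The remaining MYC features had no unadjusted p under 0.05 in the overall mean either. Feature 7313 gave 0.12 ± 0.36, then -0.16 ± 0.45, then 0.084 ± 0.092, and feature 19376 0.16 ± 0.39, then -0.37 ± 0.44, then -0.054 ± 0.28. Feature 10360 gave -0.22 ± 0.77, then 0.18 ± 0.47, then -0.59 ± 0.15, and feature 21744 -0.15 ± 0.29, then -0.046 ± 0.44, then -0.53 ± 0.13, both below 0 on the 72 h arrays. Feature 29154 gave -0.36 ± 0.48, then 0.61 ± 0.69, then -0.24 ± 0.14. Feature 15117, the only one of another accession, gave -0.082 ± 0.54, then -0.19 ± 0.47, then -0.48 ± 0.73.

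How many members kept 1 side of 0 depended on the reading. As deposited 9 of 31 did on all 4 arrays of 48 h (14% of all features) and 19 on both arrays of 72 h (54.1%). Turned by the dye labels it was 4 at 48 h (18.8%) and 12 at 72 h (45.9%). With 1 array for each orientation at 72 h, turning exchanges features that kept 1 side and those that did not. The turned count at 72 h thus follows from the count as deposited. No member kept 1 side on all 12 arrays under either reading. The means at the 3 time points had 1 sign in 13 of 31 members as deposited, against 40.8% of all features, and in 19 when turned, against 52.7%. Under the second reading limma called 0 of the 31 members for the overall mean (0.0117% of all features), with 6 at an unadjusted p under 0.05 (19.4%, against 20.5% of all features). None of the 7 features with an unadjusted p under 0.05 as deposited was among them. Each time point has equally many arrays of each orientation, so a turned mean rests on the difference between orientations. A feature alike in both comes out near 0 when turned, so the lack of overlap is no result about these features.

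**Figure D4:**
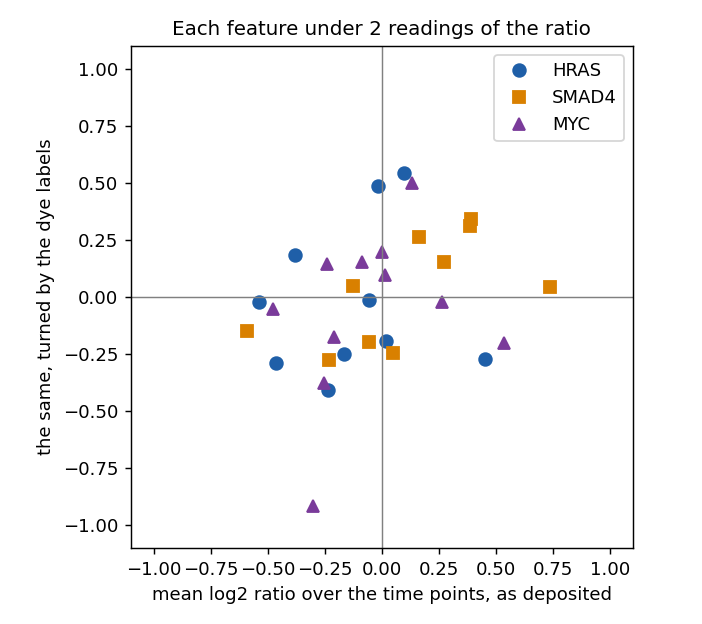
Mean log2 ratio over the 3 time points of the 31 measured features, as deposited (horizontal axis) and turned by the dye labels (vertical axis), for HRAS (blue circles), SMAD4 (orange squares) and MYC (purple triangles). SMAD4 feature 34640 lies at 0.74 and 0.045, and MYC feature 36321 at -0.30 and -0.92.

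The pathways around the drivers had no called gene either. In lists drawn from general knowledge, limma called 0 genes in each list at each time point and averaged over them (0%, 0% and 0% of all genes at 24, 48 and 72 h, 0.0793% in the mean). In the RAS and MAP kinase list 18 of 32 genes had a value, 9 above and 9 below 0 on average over the time points, with 0 above and 1 below at an unadjusted p under 0.05 (15.7% of all genes) and a median of 0.0057, where all genes had 0.021. EGR1, an immediate early transcription factor induced by MAP kinase signals, had -0.13 ± 0.65, -0.60 ± 0.40 and -1.05 ± 0.48 at 24, 48 and 72 h (SD, n = 6, 4 and 2). Its mean was -0.59 (standard error 0.17, adjusted p = 0.103), below 0 on 10 of 12 arrays, and -0.14 when turned by the dye labels. DUSP4, a phosphatase of nuclear MAP kinases, averaged -0.42 (standard error 0.27, adjusted p = 0.48) as deposited and 0.40 when turned, with 8 of 12 arrays above 0. The list then had 1 above and 1 below at an unadjusted p under 0.05 (20.5% of all genes) and a median of -0.077.

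Around CDKN2A, the cyclin D kinase and RB list had 15 of 20 genes with a value, 7 above and 8 below 0 on average. It had 1 above and 3 below at an unadjusted p under 0.05 (15.7% of all genes in either direction). Its median was -0.015, where all genes had 0.021. CDK6, a kinase that the INK4 proteins inhibit, had -0.27 ± 0.49, -0.32 ± 0.30 and -0.86 ± 0.30 at 24, 48 and 72 h (SD, n = 6, 4 and 2). Its mean was -0.49 (standard error 0.14, adjusted p = 0.103). CDKN2D, an INK4 relative of CDKN2A, had -0.44 (standard error 0.12, adjusted p = 0.0945) and was below 0 on 11 of 12 arrays. The second reading put them at -0.026 and -0.20. It gave the list 2 above and 0 below at an unadjusted p under 0.05 (20.5% of all genes) and a median of 0.11. Each of EGR1, DUSP4, CDK6 and CDKN2D rests on 1 feature.

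Around SMAD4, the TGF-beta and SMAD list had 16 of 24 genes with a value, 8 above and 8 below 0. It had 2 above and 0 below at an unadjusted p under 0.05 (15.7% of all genes). Its median was -0.025, where all genes had 0.021. At 72 h its median was -0.19, where all genes had 0.041, with 5 genes above and 11 below 0. SMURF1, a ubiquitin ligase that acts on SMAD proteins and their receptors, averaged 0.31 (standard error 0.11, adjusted p = 0.201) over 2 features. SMAD5, which carries signals of bone morphogenetic proteins, had 0.47 (standard error 0.19, adjusted p = 0.26) from 1 feature. With turned ratios SMURF1 and SMAD5 were at 0.067 and 0.11, and the 72 h median of the list at -0.024. Its median over the time points was then 0.083, with 2 above and 2 below at an unadjusted p under 0.05 (20.5% of all genes).

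Around MYC, 15 of 18 partners and regulators had a value, 8 above and 7 below 0, with 0 at an unadjusted p under 0.05 (15.7% of all genes). Their median was 0.019, where all genes had 0.021. MLXIP, a glucose-responsive factor of the MAX-like network, had -0.26 (standard error 0.13, adjusted p = 0.376) over 2 features. TRRAP, a scaffold of histone acetylase complexes that MYC recruits, had -0.29 (standard error 0.18, adjusted p = 0.474) from 1 feature. Under the second reading MLXIP was at 0.068 and TRRAP at -0.27. The list then had 0 above and 3 below at an unadjusted p under 0.05 (20.5% of all genes) and a median of 0.036. Of 22 MYC target genes 21 had a value, 16 above and 5 below 0, and the share of all genes above 0 is not given here. The list had 3 above and 2 below at an unadjusted p under 0.05 (15.7% of all genes in either direction). Its median was 0.11, where all genes had 0.021. NPM1, a chaperone of the nucleolus, had 0.29 ± 0.24, 0.28 ± 0.23 and 0.49 ± 0.090 at 24, 48 and 72 h (SD, n = 6, 4 and 2). Its mean over 6 features was 0.35 (standard error 0.10, adjusted p = 0.111). SRM, which makes spermidine, was below 0 at -0.42 ± 0.45, -0.46 ± 0.40 and -1.15 ± 0.0045 at 24, 48 and 72 h (SD, n = 6, 4 and 2). Its mean was -0.68 (standard error 0.14, adjusted p = 0.0317), below 0 on 11 of 12 arrays, and rests on 1 feature. With turned ratios NPM1 was at -0.019, SRM at 0.11 and the median of the list at 0.043. The list then had 2 above and 0 below at an unadjusted p under 0.05 (20.5% of all genes).

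Among other genes mutated in pancreatic cancer 12 of 21 had a value, 7 above and 5 below 0. None had an unadjusted p under 0.05 (15.7% of all genes), and the median was 0.035, where all genes had 0.021. KMT2C, a methylase of histone H3, had -0.23 (standard error 0.12, adjusted p = 0.371) over 3 features. RBM10, a splicing regulator, had -0.28 (standard error 0.15, adjusted p = 0.41) from 1 feature. The second reading put KMT2C at -0.16 and RBM10 at 0.30, and the median of the list at 0.14. The list then had 3 above and 0 below at an unadjusted p under 0.05 (20.5% of all genes).

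The genes most like each member were ranked by Pearson r of the gene means over the 12 arrays. For HRAS they were ZYG11B (r = 0.90, 3 features) and TMEM86A (r = 0.85, 1 feature), for SMAD4 RUVBL2 (r = 0.84, 1 feature) and MBLAC1 (r = 0.82, 1 feature), and for MYC STYX (r = 0.92, 3 features) and FBXO8 (r = 0.92, 1 feature). Each is the highest or next highest among all genes with a value, over arrays that share dye orientations, and is given as a description. With both genes turned by the dye labels these r were between 0.52 and 0.84.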

How the data were processed

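Images were quantified by the authors in GenePix Pro and spots filtered in Acuity, followed by lowess within and quantile normalization between arrays in limma, whose version is not given in the sources used here. The deposited values are log2 ratios per feature, and blank features are read as those that failed a criterion. No genome build is given in these sources, so no coordinates are printed. Columns of samples left unused numbered 0.

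Features were matched by symbol to the platform annotation, and those with exactly 1 symbol (13436) were averaged into 8828 genes. The 12 arrays were fitted with lmFit and eBayes (limma 3.58.1, R 4.3.3, 9 residual degrees of freedom) with 1 coefficient for each exposure time, Benjamini-Hochberg adjustment over all features or all genes, and FDR ≤ 0.01. The fit was tested on simulated ratios, made from residuals of each feature with arrays in random order and random signs. These carry no dye orientation and no shared culture, so the test does not cover either. Plots were drawn in Python 3.11.15 with matplotlib 3.10.9. Members and lists were chosen with earlier results of these data known. Named genes are all measured members, in each list the 2 genes with the smallest p for the overall mean, and the 2 genes most like each member. How few arrays there are sets the precision.

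Alternatives were ratios turned by the dye labels, a dye term, replicate blocks, time points alone, centring, scaling, a further quantile normalization, robust variance, array weights, robust regression, feature medians, FDR 0.05, a fold change of 1.5, a minimum of 2 arrays at each time point and each array left out.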

Additional observations from a re-analysis of the deposited data

Results flagged for a closer look

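Of 68 sets of arrays tested (31 features and 3 gene means, at 24 and 48 h), 6 held an array that stood apart from the others of its time point. The rule was Dixon's criterion, which nominally flags about 1 in 20. Each set mixes both dye orientations, and the share of flagged sets over all features was not taken. No gene mean was flagged. SMAD4 accounted for 4. At 24 h its feature 17702 was at 1.98 on replicate 5, with the others from 0.199 to 0.657, and feature 17289 at -0.224 on the same array, with the others from -0.0176 to 0.103. Feature 39377 was at 0.929 on 24 h replicate 2, with the others from -0.588 to -0.0744. At 48 h SMAD4 feature 20787 was at 1.59 on replicate 2, with the others from 0.252 to 0.429.

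MYC feature 6084 was at 0.231 on 24 h replicate 1, with the others from -0.741 to -0.38. HRAS feature 27553 was at -1.23 on 48 h replicate 1, with the others from -0.269 to -0.0746.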

How the results depend on the processing

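No member gene mean passed FDR ≤ 0.01 under any of 28 alternatives, and the lowest adjusted p of a gene mean was 0.253. With ratios turned by the dye labels, the sign changed for HRAS at 72 h (0.058), SMAD4 at 72 h (-0.074), MYC at 48 h (-0.065) and, over all exposure times, for HRAS feature 29877 (0.18) and MYC feature 7098 (-0.20). MYC at 48 h was also below 0 with array weights (-0.010) and with features averaged by accession first (-0.053), an alternative chosen after seeing the data. Robust regression called 2 member features for the overall mean, HRAS feature 13055 at -0.65 (adjusted p = 0.00437) and MYC feature 6084 at -0.50 (adjusted p = 0.00556), where it called 343 of all features and the plain fit 9. An FDR of 0.05 called 1, SMAD4 feature 34640, and the share of all features called at 0.05 is not given here.

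Leaving out 1 array moved HRAS at 48 h between -0.14 and 0.0053 (above 0 without replicate 3), SMAD4 at 24 h between -0.0062 and 0.10 (below 0 without replicate 5), MYC at 24 h between -0.063 and 0.042 (above 0 without replicate 2, 3 or 6) and MYC at 48 h between -0.034 and 0.12 (below 0 without replicate 1). The cause was not tested. The count of 9 features called in the whole table ran from 0 to 5 with an array left out, and was 1 with scaled arrays, 2 with robust variance, 15 with a dye term and 48 with array weights.

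Arrays of 1 replicate number at different times correlated in their deviations from the time means at r between 0.058 and 0.49. The highest were those of 48 h with 72 h, at 0.42 and 0.49, and the 2 arrays of 72 h deviate as mirror images. Not every pair was above 0.1, so the numbers were not taken to pair samples, which does not show that they are unpaired. Each replicate number has the same dye orientation at every time point, so these correlations and a replicate block carry the orientation too. With a replicate block (consensus correlation 0.19) 0 members were called, and 1 of all features. With the block and a dye term (consensus correlation -0.072) 70 of all features and 0 members were called. Probes averaged before genes was not run, since the tables name accessions and not probes. Depth is not known for ratios, and 2 arrays at 72 h limit what can be seen there.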
